A study of Mus musculus with 26 samples.

Results

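The tubulin genes described here are 10 α- and β-tubulin isotypes, Tuba1a, Tuba1b, Tuba4a, Tuba8, Tubb2a, Tubb2b, Tubb3, Tubb4b, Tubb5 and Tubb6, taken as the rows with these symbols in both deposited expression tables. One table lists 53465 genes and the other 55487. The members are 4 α and 6 β genes of the 16 α- and β-tubulin genes that both tables list. RNA-Seq had been performed on tibialis anterior muscle of C57BL/6J mice, 6-week-old males by the study's methods. Muscle was taken before (day 0) and 1, 3, 5 and 10 days after an injection of cardiotoxin (CTX), a snake toxin that lyses myofibers. Each day had 2 libraries. Saline is the control injection of the study, and the labels do not say whether day 0 muscle was saline-injected or untouched. RNA-Seq had also been performed on C2C12 cells, an immortal mouse myoblast line, with 2 libraries in each of 4 groups. These were control cells (CTRL) and Mettl3 knockdown cells (Cas9M3), each in growth medium (GM, day 0) and after 3 days in low-serum differentiation medium (DM3). Mettl3 encodes the catalytic subunit of the RNA m6A methyltransferase. By the study's methods the knockdown line was a stable, puromycin-selected lentiviral line that carried the repressor dCas9-KRAB with guides to the Mettl3 promoter, while the series text calls the cells a knockout. What the control line carried is not given in the labels. Expression was given in FPKM, fragments per kilobase of exon scaled to library size, and 8 further libraries of the series, from Mettl3-overexpressing and GFP cells, were not analysed here.

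Tubulin is a dimer of an α and a β chain, and dimers stack into the hollow microtubule. Each chain is made from several genes, called isotypes, whose bodies are nearly alike and whose acidic C-terminal tails differ. The tail is where enzymes add or remove tyrosine and glutamate, and where many motors and associated proteins bind. In muscle, proliferating myoblasts hold a centrosomal microtubule array, fusing myotubes rebuild it into long parallel bundles seeded from the nuclei, and mature fibers keep a sparse lattice under the membrane. Free tubulin also represses its own mRNAs, through a factor that reads the first residues of the nascent chain as it leaves the ribosome.

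The reading frames show which isotypes can be told apart at the tail. The last 30 coding bases of 7 members are shown because they encode the end of that tail, 5′ to 3′, with the last sense codon in capitals before the stop codon. They were read from GENCODE M21 transcripts of GRCm38, the build of the deposited tables. The α genes Tuba4a and Tuba8 end as follows.
Tuba4a: tatgaggacgaggatgagggagaaGAGtag
Tuba8: gaagaagagaatgagggggaggaaTTTtaa
Tuba4a ends on GAG, for glutamate, and Tuba8 on TTT, for phenylalanine. Tuba1a and Tuba1b end on a tyrosine codon, so 2 of the 4 α members encode the tyrosine that gives the detyrosination cycle its name. The β genes end as follows.
Tubb2a: gaggaggaggagggtgaagatgagGCTtga
Tubb2b: gaggaggaagagggcgaggatgagGCTtga
Tubb3: gaggaatcggaagcccaggggcccAAGtga
Tubb4b: gaggaggaggctgaggaggaggtgGCTtag
Tubb5: ttcggagaggaggcagaagaggagGCCtaa
Tubb2a, Tubb2b, Tubb4b and Tubb5 end on an alanine codon, and Tubb3 ends on a lysine codon, AAG. All 6 β frames open with codons for Met-Arg-Glu-Ile and all 4 α frames with codons for Met-Arg-Glu-Cys, the start that the autoregulation factor reads.

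The genes lie on separate chromosomes apart from 2 neighboring pairs (GRCm38). Tuba1a (chr15:98949837-98953703) and Tuba1b (chr15:98931425-98934565) sit side by side on the minus strand, and so do Tubb2a (chr13:34074274-34078007) and Tubb2b (chr13:34126748-34130466). The coding sequences of the first pair are 98.3% identical and those of the second 96.5%. Tuba4a (chr1:75214228-75219865, minus strand) and Tuba8 (chr6:121210696-121226854, plus strand) share 81.1% with each other. Tubb4b (chr2:25222160-25224702) and Tubb5 (chr17:35833921-35838306) lie on the minus strand, and Tubb3 (chr8:123411424-123422015) and Tubb6 (chr18:67390717-67402749) on the plus strand. All are protein-coding genes, and the values cover their exons, UTRs included.

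Likeness limits how far reads can be assigned. Of all windows of 50 bases in the Tuba1b transcript, 83.1% also occur in a transcript of another gene. This share was 75.5% for Tuba1a, 55.5% for Tubb4b, 49.6% for Tubb2a and 39.3% for Tubb2b. It was 48.8% for Tuba4a, mostly in Stk16, and 14.7% for Tuba8, mostly in Gm15856. It was 0.115% for Tubb5 and 0 for Tubb3 and Tubb6. Levels of Tuba1a, Tuba1b, Tubb2a, Tubb2b and Tubb4b are therefore uncertain between near-identical copies. The treatment of reads that match several genes is not given in the sources used here. The strand setting is not given either, and some members share exon sequence with a gene on the opposite strand. Tuba4a shares 1379 of its 3701 exonic bases with Stk16, Tuba8 shares 368 with the antisense RNA Gm15856, and Tubb4b shares 121 with Fam166a. In the C2C12 table alone, a readthrough transcript, Gm49450, overlaps both Tuba1a and Tuba1b.

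Depth, read from the steps between low values, was 14170000 to 18820000 reads on genes per muscle library and 14230000 to 29570000 per C2C12 library. Low values move in steps of 1 read, worth 0.0315 to 0.104 FPKM on a transcript of 1 kb. All 10 members passed the filter of 0.5 FPKM in at least 2 libraries in muscle, and 9 passed in C2C12 cells. Tuba8 did not exceed 0.0278 FPKM in any C2C12 library. The share of reads on ribosomal RNA loci followed the replicate number in all 4 C2C12 groups, with 0.542% to 0.728% in the replicate 1 libraries and 8.44% to 29.6% in the replicate 2 libraries. Control GM replicate 2 had the highest share and stood apart in its tubulin levels, so the comparisons that rest on it are also given without it. The labels do not say whether replicates came from separate animals or cultures, so p-values measure the spread between these samples. The smallest p of an exact permutation test at this size is 0.333, so the tests were made with limma across all genes of a table.

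In uninjured muscle, Tuba4a and Tuba8 were the leading α-tubulin mRNAs. Tuba4a, an isotype of muscle and platelets, was at 172 and 99.0 FPKM in the day 0 libraries, and Tuba8, an isotype of striated muscle, at 123 and 84.2 FPKM. Tuba4a was above Tuba8 in both libraries. Tuba1a, abundant in developing neurons, was at 13.3 and 28.7 FPKM, and Tuba1b, a widely expressed isotype, at 9.25 and 15.5 FPKM.

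On day 3 the order of the α genes was turned over. Tuba1a reached 243 and 319 FPKM, which was 14.2-fold above day 0 (log2 fold change 3.83 ± 0.56 SE, adjusted p = 0.00138). Tuba1b reached 178 and 188 FPKM (log2 fold change 3.93 ± 0.45 SE, adjusted p = 0.000569). Both day 3 libraries lay above every library of the other days for both genes. Tuba8 fell to 31.1 and 21.1 FPKM, 3.95-fold below day 0 (log2 fold change -1.98 ± 0.30 SE, adjusted p = 0.00156). Its antisense neighbor Gm15856 moved with it, from 60.0 and 34.7 FPKM on day 0 to 14.3 and 9.91 on day 3 (log2 fold change -1.93), and reads of the overlap cannot be assigned between them. Tuba4a was at 113 and 114 FPKM on day 3, inside its day 0 range (log2 fold change -0.20, 95% interval -1.17 to 0.76, adjusted p = 0.712, and 0.32 under quantile normalization).

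Among the β genes, Tubb4b led in uninjured muscle, with 74.7 and 51.0 FPKM. Tubb4b is a widely expressed isotype that is also prominent in ciliated cells. Tubb6, a divergent isotype linked to microtubule disorder in dystrophic muscle, was at 11.9 and 21.8 FPKM. Tubb5, the general isotype of dividing cells, was at 10.4 and 18.8 FPKM and Tubb2a at 8.43 and 11.6 FPKM. Within both libraries the order was Tubb6, Tubb5 and Tubb2a, although the ranges of neighbors in that order overlap. Tubb2b was lower, at 0.980 and 2.42 FPKM, and Tubb3, the neuronal βIII isotype, was near the floor at 0.0430 and 0.160 FPKM.

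On day 3 Tubb6 was the most abundant of the 10 mRNAs in replicate 1 and in replicate 2, with 281 and 449 FPKM. It rose 21.9-fold (log2 fold change 4.45 ± 0.53 SE, adjusted p = 0.000639). Tubb3 rose 64.0-fold, to 10.9 and 13.8 FPKM (adjusted p = 0.000263), and stayed the lowest in level. Its fold rests on 1 and 4 implied reads on day 0 and on the pseudocount of 0.1, and the log2 fold change was 3.59 with a pseudocount of 1 and 7.01 with 0.01. Tubb2b rose to 66.4 and 95.9 FPKM (log2 fold change 5.60 ± 0.57 SE, adjusted p = 0.000431), or 4.96 with a pseudocount of 1, above that of Tubb3, and Tubb2a to 149.6 and 215 FPKM (log2 fold change 4.17, adjusted p = 0.000434). Tubb2a and Tubb2b are close relatives best known from neurons. Tubb5 rose to 84.8 and 75.0 FPKM (log2 fold change 2.51 ± 0.45 SE, adjusted p = 0.00310). Tubb4b, the leading β mRNA of uninjured muscle, was at 79.7 and 83.0 FPKM (log2 fold change 0.40, 95% interval -0.33 to 1.13, adjusted p = 0.327). In all, 7 members were called higher and 1 lower, where 24.5% of the 16753 genes tested were called higher and 24.3% lower. The median log2 fold change of the 10 members was 3.88, beside 0.01 over all genes tested. The count of called members was 8 in every fit that left out 1 library.

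**Figure D1:**
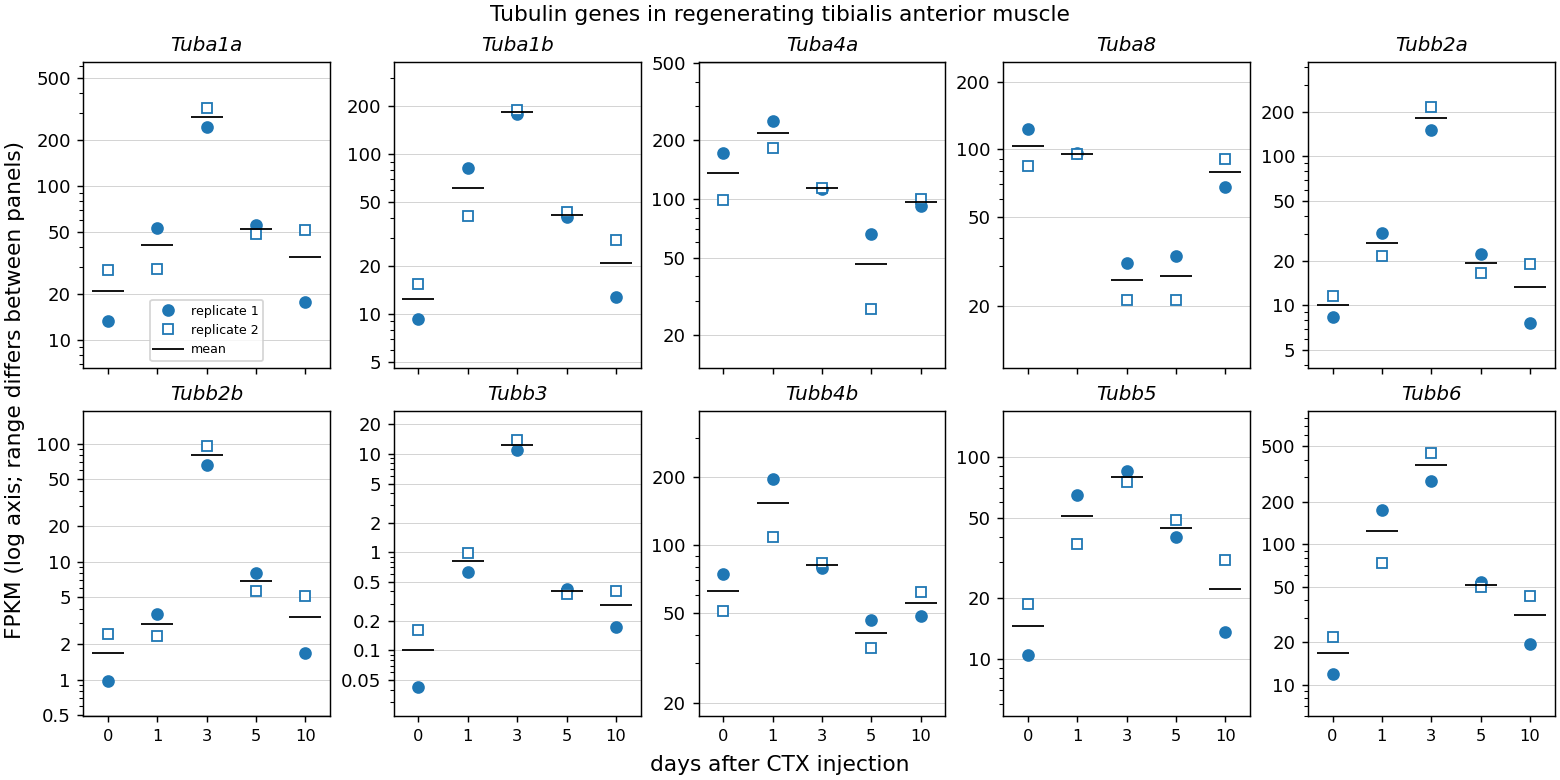
Level in FPKM (log axis) of the 10 tubulin genes in each muscle library against days after CTX injection, with circles for replicate 1, squares for replicate 2 and a bar for the mean. Tuba1a, Tuba1b, Tubb2a, Tubb2b, Tubb3, Tubb5 and Tubb6 were highest on day 3, Tuba4a and Tubb4b on day 1, and Tuba8 fell to 31.1 and 21.1 FPKM on day 3.

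Day 1 preceded most of this rise. Tuba4a was highest on day 1, at 252 and 182 FPKM, and so was Tubb4b, at 197 and 109 FPKM. Neither passed the test against day 0 (log2 fold change 0.72 and 1.25, adjusted p = 0.315 and 0.0584), although the libraries of the groups did not overlap. Stk16, which overlaps Tuba4a, was at 15.5 and 9.81 FPKM on day 0 and 20.5 and 15.8 on day 1. Fam166a, which overlaps Tubb4b, was at 14.1 and 6.32 FPKM and then 42.0 and 18.5. Reads of these overlaps cannot be assigned between the genes. Day 1 lay above day 0 without overlap for 8 of 10 members, as for 25.5% of all genes. Tubb6 was already at 177 and 73.6 FPKM (log2 fold change 2.82 ± 0.53 SE, adjusted p = 0.0319). Tuba1b was at 82.1 and 41.2 FPKM (log2 fold change 2.27, adjusted p = 0.0351), and Tubb3 at 0.635 and 0.978 FPKM (log2 fold change 2.21, adjusted p = 0.0309). These 3 members were called higher, where 3.53% of all genes tested were, and 6 of the 10 had an unadjusted p below 0.05, as had 4493 of 16753 genes. All 3 calls were lost when either day 0, either day 3 or either day 5 library or day 1 replicate 1 was left out, fits in which 9 to 140 of all genes were called instead of 1005, and 5 were made without either day 10 library. Replicate 1 was above replicate 2 for 9 of the 10 members on day 1.

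From day 1 to day 3 the isotypes parted. Tuba1a, Tuba1b, Tubb2a, Tubb2b, Tubb3 and Tubb6 rose and Tuba8 fell, so that 6 members were called higher and 1 lower, beside 14.5% and 16.6% of all genes. Tubb2b moved most, by 4.73 ± 0.57 SE on the log2 scale (adjusted p = 0.00273). Tubb5 did not pass (log2 fold change 0.71, adjusted p = 0.262), and the widely expressed Tubb4b and the muscle isotype Tuba4a had lower values on day 3 than on day 1 in both libraries (log2 fold change -0.85 and -0.92, adjusted p = 0.0755 and 0.130). Without day 3 replicate 2, which left 1362 instead of 5213 genes called, 4 calls were left, those of Tuba8, Tubb2a, Tubb2b and Tubb3.

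From day 3 to day 5 most of the members that had risen fell. By day 5 Tubb6 was at 53.7 and 49.4 FPKM (log2 fold change from day 3 -2.79 ± 0.53 SE, adjusted p = 0.0176), Tubb2a at 22.3 and 16.5 FPKM (-3.22, adjusted p = 0.00691) and Tubb3 at 0.427 and 0.380 FPKM (-4.62, adjusted p = 0.00507). Tuba1a, Tuba1b and Tubb2b were the other members called lower, 6 in all, where 5.46% of genes were called lower. Tubb5 was at 40.1 and 48.9 FPKM (log2 fold change -0.85, adjusted p = 0.253). Tuba8 was at 33.2 and 21.2 FPKM, close to its day 3 values. Tuba4a was at 65.7 and 27.2 FPKM and Tubb4b at 46.8 and 35.0 FPKM. Neither passed against day 3 (log2 fold change -1.42 and -1.01, adjusted p = 0.0643 and 0.0767). For both genes the day 5 libraries lay below those of all other days. The call of this comparison depended on single libraries: it was 0 members without day 3 replicate 2 or day 5 replicate 2, and 2, Tubb2a and Tubb3, without replicate 1 of either day. Calls were lost across the whole table in these fits, with 0, 5, 568 and 258 genes called (without day 3 replicate 2, day 5 replicate 2, day 3 replicate 1 and day 5 replicate 1) instead of 2126.

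Between day 3 and day 10 the called changes ran opposite to those up to day 3. Tuba8 rose from day 3 to 67.6 and 90.8 FPKM (log2 fold change 1.61 ± 0.30 SE, adjusted p = 0.00542), and the 7 members that had risen fell, from -1.95 for Tubb5 to -5.05 for Tubb3 on the log2 scale. This made 1 call higher and 7 lower, beside 19.1% and 18.8% of all genes. Against day 0, no member was called by limma and 1 of 10, Tubb3, had an unadjusted p below 0.05, as had 1697 of all genes, with 0.00597% of all genes called. Tubb6 was at 19.6 and 42.8 FPKM on day 10 (log2 fold change against day 0 0.84, 95% interval -0.38 to 2.06). Tuba1a was at 17.6 and 51.9 FPKM (0.63, 95% interval -0.67 to 1.93). Replicate 2 was the higher of the day 10 libraries for 10 of 10 members, and these wide intervals do not show that the levels had returned.

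Isotype shares do not change with the scaling of a library, and they were computed as the FPKM of a gene over the summed FPKM of all 8 α or all 8 β genes listed. They are descriptions, with no test. The summed tubulin level was 382 ± 62.1 FPKM (SD, n = 2) before injury. It was 792 ± 269 FPKM at day 1, 1428 ± 237 at day 3, 343 ± 48.1 at day 5 and 361 ± 108 at day 10. In the α pool, Tuba4a and Tuba8 made up 53.9% and 38.4% in day 0 replicate 1 and 42.7% and 36.3% in replicate 2. On day 3 they held 19.1% and 5.30% in replicate 1 and 17.2% and 3.19% in replicate 2. Tuba1a went from 4.16% and 12.4% of the α pool on day 0 to 41.4% and 48.2% on day 3, and Tuba1b from 2.90% and 6.67% to 30.3% and 28.4%. The pool was thus led by a different pair of genes on day 3 than on day 0 in both replicates. On day 10 Tuba4a was back at 47.7% and 36.2% and Tuba8 at 35.1% and 32.8%.

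Read through the last codons given above, the α pool changed in the codon it ends on. Genes whose frame ends on a tyrosine codon, Tuba1a and Tuba1b with the minor Tuba1c, Tuba3a and Tuba3b, supplied 7.62% and 20.9% of the α pool before injury. The share was 31.3% and 22.6% at day 1 and 75.6% and 79.6% at day 3. Afterwards it was 51.8% and 68.2% at day 5 and 17.2% and 31.0% at day 10. The day 3 libraries lay above all 8 others, and the ranges of day 0 and day 10 overlapped. These are shares of mRNA, and tyrosine is also added and removed on the protein.

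The β pool was 69.9% and 48.1% Tubb4b on day 0. This share was 41.6% and 44.4% on day 1 and 11.8% and 8.90% on day 3, although the level of Tubb4b on day 3 was no lower than on day 0. Tubb6 held 11.2% and 20.5% of the pool at first, 37.3% and 30.1% a day after injury, and 41.8% and 48.2% on day 3. Tubb2a reached 22.2% and 23.1% on day 3, Tubb2b 9.86% and 10.3%, and Tubb3 1.62% and 1.48%. For these 3 genes the day 3 libraries lay above those of all other days. Tubb5 showed another order: it held 12.6% and 8.04% on day 3 and was highest on day 5, with 23.3% and 31.3%. On day 5 Tubb4b held 27.2% and 22.3% and Tubb6 31.3% and 31.5%. By day 10 Tubb4b was at 53.0% and 38.7%, which overlaps its day 0 range. Tubb6 was then at 21.3% and 26.6%, above both day 0 libraries. The ratio of α to β levels was 2.98 and 2.18 in the day 0 libraries and 0.873 and 0.711 on day 3, so that summed β mRNA was above α mRNA in both day 3 libraries, and otherwise in day 5 replicate 2 alone (0.974).

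**Figure D2:**
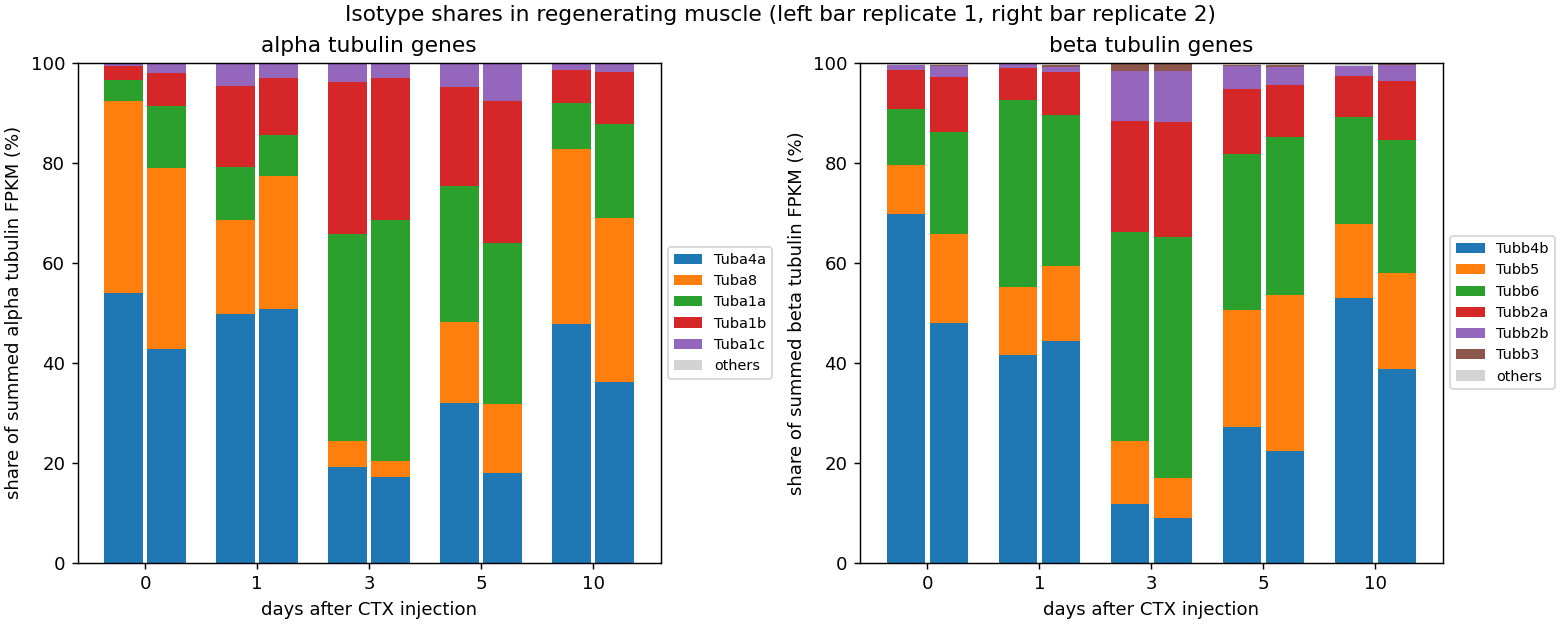
Stacked bars of the share (percent) of each gene in the summed FPKM of α- (left) and β-tubulin genes (right) in each muscle library by days after CTX injection, replicate 1 left and replicate 2 right in each pair. On day 3 Tuba1a and Tuba1b replaced Tuba4a and Tuba8 as the larger part of the α bar, and Tubb4b shrank from 69.9% and 48.1% to 11.8% and 8.90% of the β bar.

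Markers of several cell types moved with these levels. In bulk tissue, fewer cells of a type and less RNA per cell cannot be told apart. The 6 fiber markers (Acta1, Ckm, Myh4, Tnnt3, Tnni2, Mb) summed to 52592 and 49107 FPKM on day 0 and 13745 and 11554 on day 3. The 5 myoblast and early myotube markers (Myod1, Myog, Myh3, Mymk, Mymx) went from 32.2 and 35.7 FPKM to 938 and 1367, and the 5 macrophage markers (Adgre1, Cd68, C1qa, C1qb, Csf1r) from 17.0 and 32.7 to 539 and 509. The 4 proliferation markers (Mki67, Top2a, Cdk1, Ccnb1) went from 0.176 and 2.22 to 17.3 and 7.94, and the 3 fibroblast markers (Pdgfra, Col1a1, Dcn) from 32.5 and 79.5 to 379 and 404. The part of these cell types in the tubulin changes was not tested. Beside Tubb3, the 4 neuron markers (Snap25, Rbfox3, Syt1, Nefl) summed to at most 0.0924 FPKM in any muscle library. Beside Tuba4a, 4 platelet markers (Pf4, Itga2b, Gp9, Ppbp) had a summed level of 33.6 and 31.8 FPKM on day 1, against 1.99 and 5.29 before injury. The sum was 32.9 and 25.3 FPKM on day 3. Most of the day 1 sum was Pf4, at 29.2 FPKM or more. Ppbp also peaked then, with 3.09 and 2.04 FPKM, after 0 and 0.415 FPKM in uninjured muscle. By day 3 Ppbp had fallen to 0.234 and 0.0456 FPKM. Itga2b was at 0.448 and 0.405 FPKM a day after injury, against 0.324 and 0.536 before it. Gp9 was at 0 and 0.0864 FPKM against 0 and 0.0850 in the same libraries. The platelet isotype Tubb1 did not exceed 0.116 FPKM in any muscle library. The part of platelets in the Tuba4a values was not tested.

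The 3 endothelial markers (Pecam1, Cdh5, Kdr) summed to 34.4 and 26.8 FPKM on day 3, against 44.5 and 65.3 before injury, and of these Kdr was called lower (log2 fold change -1.82, adjusted p = 0.00392). Their part in the day 3 values was not tested either. The 4 neutrophil markers (S100a8, S100a9, Retnlg, Csf3r) summed to 18.7 and 9.52 FPKM on day 1, against 1.58 and 5.11 on day 0. S100a9 was at 10.0 and 4.23 FPKM on day 1 against 1.08 and 2.30 on day 0. For S100a8 the groups overlapped, with 5.23 and 2.19 FPKM against 0.347 and 2.48. Csf3r was highest on day 3, at 5.69 and 6.70 FPKM, and Retnlg was at 0 in both day 1 libraries.

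The sex given in the study's methods was not borne out by all muscle libraries. Xist, the RNA of the inactive X chromosome, was at 5.77 FPKM or more in both day 0, both day 10 and 1 day 3 library (replicate 2). It was at most 0.152 FPKM in the other 5, where the Y-linked gene Ddx3y was at 6.10 to 11.4 FPKM. Day 1 against day 0 therefore cannot be told apart from this difference, day 10 against day 0 does not involve it, and day 3 holds a library of each kind. Among libraries with Xist, day 3 replicate 2 was above the mean of day 0 by 4.79 on the log2 scale for Tubb6, 6.17 for Tubb3, 4.03 for Tuba1a and 3.97 for Tuba1b, and the difference was -2.26 for Tuba8. Among libraries without Xist, day 3 replicate 1 was above the mean of day 1 by 4.46 for Tubb2b and 2.63 for Tuba1a, and above that of day 5 by 2.45 for Tubb6 and 4.45 for Tubb3. With a term for Xist in the fit, a choice made after seeing the data, the 8 calls of day 3 against day 0 remained, 4 of the 7 calls against day 1 remained, and none of the day 1 and day 5 calls did. That fit called 0 of all genes on day 1 against day 0 and on day 5 against day 3.

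Genes that make, modify and use tubulin were followed in lists alongside. Of the tubulin folding list (prefoldin, the CCT chaperonin, tubulin cofactors and the autoregulation factor Ttc5), 11 of 23 were called higher and 5 lower on day 3 against day 0, with a median log2 fold change of 0.41. The γ-tubulin ring complex nucleates microtubules. Of the list of γ-, δ- and ε-tubulin and ring complex genes, 1 of 15 was higher and 10 were lower (median -0.70). Tyrosination, glutamylation and acetylation enzymes gave 7 higher and 3 lower of 16, transport motors 6 and 6 of 18, severing proteins 3 and 0 of 7, and microtubule-associated proteins with plus-end proteins and stathmins 8 and 7 of 22 (medians 0.60, 0.12, -0.02 and -0.17). These counts stand beside 24.5% of all genes called higher and 24.3% called lower.

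The 3 largest rises and 3 largest falls among the called genes of these lists were as follows. Dclk1, a doublecortin-like microtubule-binding kinase, went from 0.168 and 0.431 FPKM on day 0 to 22.6 and 34.5 on day 3 (log2 fold change 6.21, adjusted p = 0.000331). Vash2, an enzyme that removes the terminal tyrosine of α-tubulin, went from 0.354 and 1.49 to 20.6 and 31.3 (4.90, adjusted p = 0.00168). Map1b, a microtubule-associated protein of growing axons, rose by 3.69 on the log2 scale. The kinesin Kif1c fell from 151 and 119.5 FPKM to 29.9 and 23.6 (log2 fold change -2.33, adjusted p = 0.00104), the dynein light chain Dynll2 by 1.80 and the microtubule-associated Mtus1 by 1.83 on the log2 scale. Tuba1c, the other α gene of the Tuba1 cluster, rose from 1.79 and 4.36 to 22.4 and 20.0 FPKM (log2 fold change 2.88, adjusted p = 0.00287).

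The gene outside the tubulin lists with the profile most like each member was found by Pearson correlation of log2 levels over the 10 muscle libraries, as a description. Symbols that start with Gm, mt- or Tub, or contain Rik, were left out of this search. For Tubb6 it was Dscr3 (r = 0.996), for Tubb5 it was Actb, the cytoplasmic β-actin (r = 0.994), and for Tubb2b it was Tmem176b (r = 0.995). For Tuba1b it was Snx20 (r = 0.995), for Tubb4b Eif4ebp1, a translation repressor (r = 0.975), and for Tuba4a Tor1b (r = 0.967). The remaining members were closest to Slc30a5 (Tuba1a, r = 0.986), Aen (Tuba8, r = 0.970), Slc2a6 (Tubb2a, r = 0.990) and Aldh3b1 (Tubb3, r = 0.980). The 10 libraries share one time course.

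In C2C12 cells the targeted gene was checked first. Mettl3 was at 4.68 to 5.65 FPKM in the 4 control libraries and at 0.0805 to 0.331 in the 4 knockdown libraries. The α pool of these cells was led by Tuba1a and Tuba1b, not by the fiber isotypes. In control GM, Tuba1a was at 187 and 1164 FPKM, Tuba1b at 192 and 841 and Tuba4a at 18.2 and 21.5. Tuba8 had at most 2 implied reads in any C2C12 library.

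The GM levels differed by several fold between replicates. Control GM replicate 2 was above replicate 1 for 9 of 9 members, with a median log2 difference of 2.02, and for 8 of them by at least 1, as were 17.4% of all genes tested. Its summed tubulin level was 3843 FPKM against 886 in replicate 1. Knockdown GM replicate 2 was likewise above replicate 1 for 8 of 9 members, with 2354 against 1332 FPKM in sum. The 4 proliferation markers moved with them, at 62.2 and 182 FPKM in control GM and 101 and 143 in knockdown GM, and their part in the spread was not tested. Ribosomal RNA reads differed between replicates in GM (0.589% and 29.6%, 0.728% and 10.7%) and also at DM3 (0.542% and 8.44%, 0.723% and 11.6%). Their part in the spread of the tubulin levels was not tested. At DM3, summed tubulin was 1369 and 1458 FPKM in control cells and 713 and 807 FPKM in knockdown cells.

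**Figure D3:**
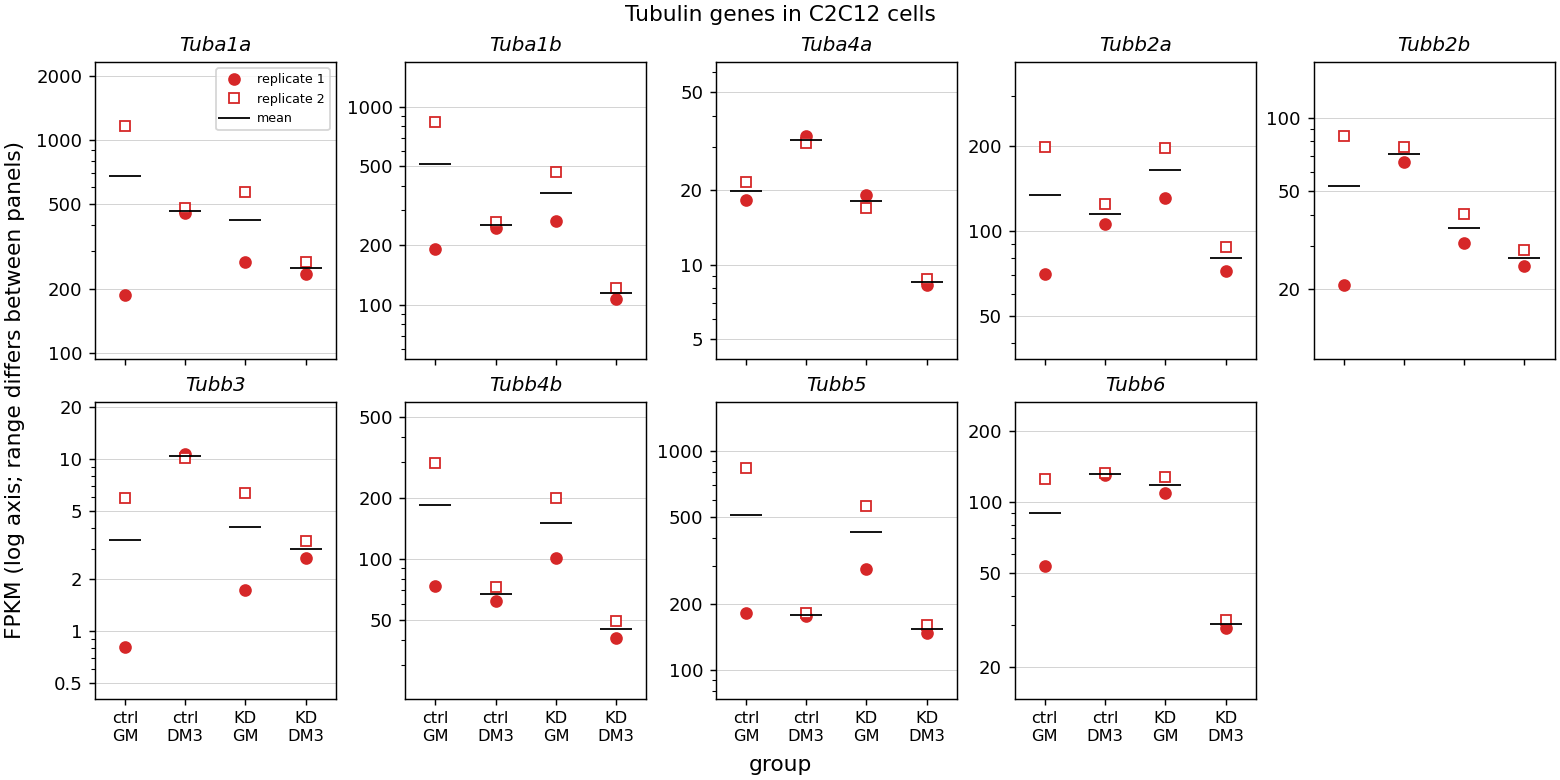
Level in FPKM (log axis) of 9 tubulin genes in each C2C12 library by group (ctrl, control; KD, Mettl3 knockdown), with circles for replicate 1, squares for replicate 2 and a bar for the mean. The control GM libraries are far apart for most genes, and the knockdown DM3 libraries lie below the control DM3 libraries in all 9 panels.

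Differentiation of control cells gave no called member (limma), where 1.14% of the 13824 genes tested were called, and 1 of 9 members, Tuba4a, had an unadjusted p below 0.05, as had 2520 of all genes. Tuba4a was at 18.2 and 21.5 FPKM in GM and 33.0 and 31.1 at DM3 (log2 fold change 0.69, adjusted p = 0.119). Tubb3 was at 0.808 and 5.93 FPKM in GM and 10.8 and 10.2 at DM3 (2.17, 95% interval -0.10 to 4.45). Tubb6 was at 53.2 and 125 FPKM and then 130.3 and 133 (0.69, adjusted p = 0.374). For these 3 genes the DM3 libraries lay above both GM libraries, as for 24.8% of all genes, and for 2, Tubb5 and Tubb4b, they lay below, as for 22.4%. Tubb5 was at 182 and 841 FPKM in GM and 176 and 182 at DM3. Calls turned on which control GM library was kept. Without control GM replicate 1, Tubb5, Tubb4b and Tuba1b were called lower (log2 fold change -2.23, -2.15 and -1.73), in a fit that called 1917 of all genes lower. Without replicate 2, where 87 of all genes were called higher, Tubb2b and Tubb6 were called higher (1.77 and 1.30, adjusted p = 0.0418 and 0.0471).

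In knockdown cells the DM3 libraries lay below both GM libraries for 8 of 9 members, Tubb3 being the exception, where 24.1% of all genes showed that order. None was called (0.0289% of all genes), while 3 of 9 members, Tuba4a, Tubb4b and Tubb6, had an unadjusted p below 0.05, as had 1748 of all genes. Tubb6 was at 109 and 127 FPKM in GM and 29.2 and 31.5 at DM3 (log2 fold change -1.95 ± 0.39 SE, adjusted p = 0.117). Tuba4a was at 19.2 and 16.9 FPKM and then 8.30 and 8.72 (-1.07 ± 0.17 SE, adjusted p = 0.0811). Both passed when either control GM library was left out of the shared fit (Tubb6 adjusted p = 0.0178 and 0.0179, Tuba4a adjusted p = 0.0237 and 0.0244), and without replicate 2 Tuba1b passed as well, in fits that called 502 and 494 of all genes, although the fold changes of the knockdown line do not involve those libraries.

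Knockdown and control cells were then compared within each stage, which asks whether lower Mettl3 goes with other tubulin levels. In GM no member was called, 0 had an unadjusted p below 0.05, and 0.0% of all genes were called, while 1244 had an unadjusted p below 0.05. The libraries of the groups overlapped for all 9 members, whereas 15.6% of all genes were higher and 13.8% lower without overlap. The intervals were wide, from -2.27 to 1.76 on the log2 scale for Tuba1a, and leave room for large differences in either direction. Without control GM replicate 2 the fold change of Tuba1a was 1.06 and that of Tubb6 1.14, and without replicate 1 they were -1.57 and -0.0914, with no member called in either fit. At DM3 the knockdown libraries lay below the control libraries for 9 of 9 members, where 34.2% of all genes showed that order. Tuba4a was called lower, at 8.30 and 8.72 FPKM against 33.0 and 31.1 (log2 fold change -1.90 ± 0.17 SE, 3.73-fold, adjusted p = 0.0187), where 0.687% of all genes were called lower. Its neighbor Stk16, which shares exonic bases with it, was at 12.4 and 13.7 FPKM against 11.6 and 14.0 (log2 fold change 0.03). Tubb6 was at 29.2 and 31.5 FPKM against 130.3 and 133 (-2.11 ± 0.39 SE, adjusted p = 0.0566), just short of the threshold.

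The remaining members at DM3 ran from -0.22 for Tubb5 (147 and 161 against 176 and 182 FPKM) to -1.78 for Tubb3 (2.65 and 3.35 against 10.8 and 10.2 FPKM) on the log2 scale, and did not pass. The median over the 9 members was -1.15, beside -0.05 over all genes tested. With the replicate number as a block, which pairs the libraries of this table by their deviations, Tubb6 was called too (adjusted p = 0.0334), giving 2 calls among 505 genes. Leaving out any of the 4 DM3 libraries left 0 of all genes called, with a log2 fold change of -1.86 to -1.94 and adjusted p = 0.207 to 0.254 for Tuba4a. Leaving out either control GM library gave 878 and 883 genes called, among them Tuba4a, Tubb2b and Tubb6. The difference of the knockdown effect between DM3 and GM was -1.77 for Tuba4a and -2.64 for Tubb6 on the log2 scale (adjusted p = 0.266 and 0.283), and none of 9 members passed this test (0.0% of all genes), with 2, these same genes, at an unadjusted p below 0.05, as had 1198 of all genes. Without control GM replicate 2 it was -1.89 for Tuba4a and -3.25 for Tubb6 (adjusted p = 0.117 and 0.0808).

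**Figure D4:**
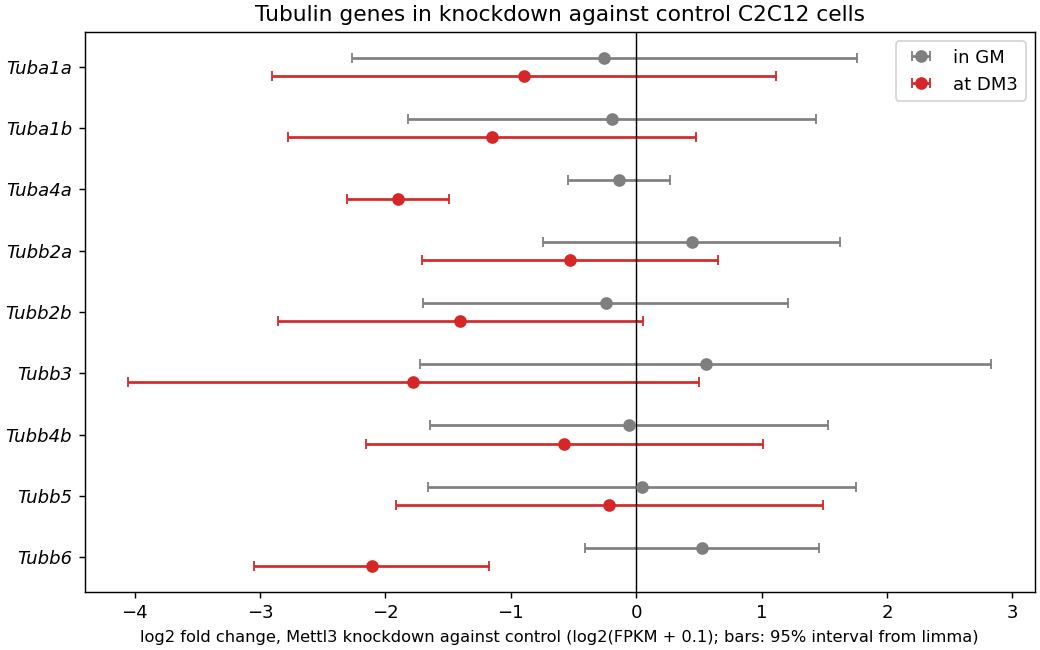
Log2 fold change of Mettl3 knockdown against control C2C12 cells (horizontal axis) for 9 tubulin genes, in GM (gray) and at DM3 (red), with 95% intervals from limma. At DM3 the intervals of Tuba4a and Tubb6 lie below 0, and in GM every interval spans 0.

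Shares within the pools do not carry the scaling of a library. Tubb5 held 45.4% and 54.3% of the β pool in control GM, where its level was 182 and 841 FPKM. In control cells it held 32.0% and 30.4% at DM3, and in knockdown cells it was at 43.7% and 49.8% in GM and 46.5% and 44.5% at DM3. Tubb6 held 13.3% and 8.08% in control GM and 23.6% and 22.2% at DM3, and in knockdown cells 16.4% and 11.2% in GM and 9.21% and 8.71% at DM3. So the share of Tubb6 was higher at DM3 than in both GM libraries in control cells and lower in knockdown cells. Tubb2b held 5.18% and 5.44% in control GM and 11.9% and 12.8% at DM3, and 4.67% and 3.56% and then 7.80% and 7.97% in knockdown cells, higher at DM3 in both lines. Tubb3 went from 0.201% and 0.383% to 1.95% and 1.70% in control cells and from 0.261% and 0.561% to 0.835% and 0.926% in knockdown cells. Tubb4b was lower in share at DM3 in both lines, at 18.3% and 19.1% and then 11.2% and 12.1% in control cells, and 15.2% and 17.6% and then 12.9% and 13.6% in knockdown cells.

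In the α pool the leading genes moved the same way in both lines. Tuba1a held 38.6% and 50.8% in control GM and 55.3% and 55.5% at DM3, and 40.0% and 46.8% and then 59.3% and 59.7% in knockdown cells. Tuba1b went the other way, from 39.6% and 36.7% to 29.9% and 30.5% in control cells and from 39.5% and 38.3% to 27.0% and 27.3% in knockdown cells. Tuba4a held 4.03% and 3.61% at control DM3 and 2.10% and 1.96% at knockdown DM3, and 3.74% and 0.938% in the control GM libraries, so that its share differed by more between those replicates than between the lines at DM3. Tuba1c, which is no member but shares sequence with both Tuba1 members, made up 10.4% to 18.1% of the pool in all groups. Genes that end on a tyrosine codon supplied 96.0% to 99.1% of the α pool in every C2C12 library.

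**Figure D5:**
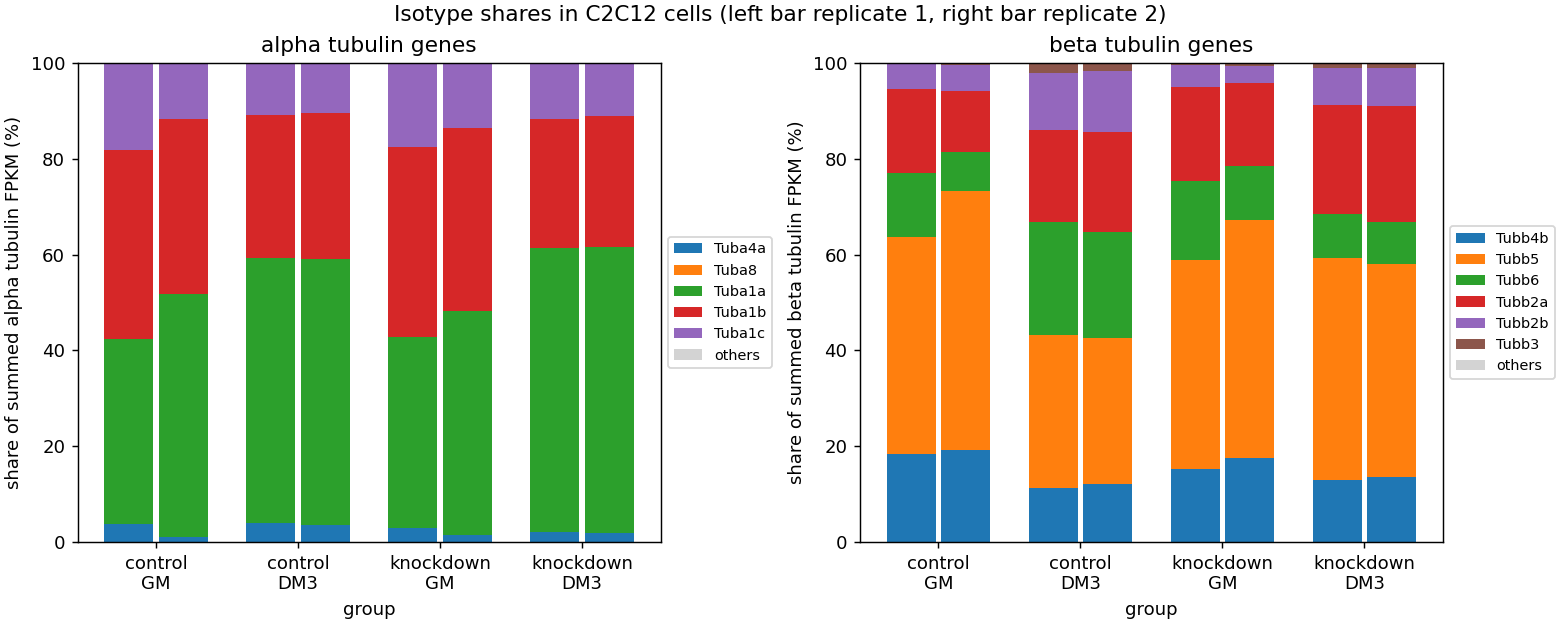
Stacked bars of the share (percent) of each gene in the summed FPKM of α- (left) and β-tubulin genes (right) in each C2C12 library by group, replicate 1 left and replicate 2 right in each pair. At DM3 Tubb6 was 23.6% and 22.2% of the β bar in control cells and 9.21% and 8.71% in knockdown cells.

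Differentiation markers differed between the lines at DM3. Myog, the myogenin gene that marks entry into differentiation, was at 89.1 and 83.3 FPKM in control and 3.50 and 2.28 in knockdown cells. The 5 myoblast and early myotube markers summed to 365 and 327 FPKM against 13.5 and 10.4, and the 6 fiber markers to 488 and 454 against 13.1 and 10.0, with 5 and 3 of the 6 detected at 0.5 FPKM. The 4 proliferation markers summed to 61.7 and 52.7 FPKM against 24.0 and 22.0. The part of all these markers in the lower tubulin values was not tested. The lower differentiation markers of these libraries run opposite to the study's own assays of knockdown cells. There, fusion genes were reported as higher by RT-qPCR on the third day of differentiation, and myosin heavy chain protein as higher too. The cause of this difference was not tested. In GM the myoblast markers also differed between replicates, with 22.7 and 7.62 FPKM in control and 31.6 and 3.08 in knockdown cells. Macrophage markers did not exceed 6.53 FPKM in sum, and neutrophil, endothelial and neuron markers were each below 1 FPKM in sum in every C2C12 library. Fibroblast markers, which myoblast lines also express, summed to 108 to 384 FPKM and platelet markers to 0.999 to 6.56.

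No gene of the folding, γ/δ/ε-tubulin and ring complex, modifying, severing, motor and associated protein lists was called in any of the 5 C2C12 comparisons. Calls were rare across the table as well. Of all 13824 genes tested, 158 were called in control and 4 in knockdown differentiation. Knockdown against control gave 0 in GM and 274 at DM3, and the difference of these effects gave 0. At DM3 in knockdown against control cells the median log2 fold change was -0.42 for the 15 γ/δ/ε-tubulin and ring complex genes and -0.58 for 8 severing genes. It was -0.30 for 23 associated proteins, -0.22 for 23 folding genes, -0.14 for 16 modifying enzymes and -0.11 for 19 motors. The most alike genes were also sought, with the same symbols left out, over the 8 C2C12 libraries. Tubb4b was closest to Birc5, a chromosomal passenger protein (r = 0.998), Tubb5 to Haus4, a subunit of the augmin complex that branches spindle microtubules (r = 0.997), and Tuba1b to Mad2l1, a spindle checkpoint protein (r = 0.992). Tubb6 was closest to Tmpo (r = 0.966), Tuba4a to Ncbp1 (r = 0.984), Tuba1a to Tgif2 (r = 0.989), Tubb2a to Cinp (r = 0.976), Tubb2b to Gpn1 (r = 0.977) and Tubb3 to Ifrd1 (r = 0.977). These correlations are descriptions, over libraries that differ in ribosomal RNA content and proliferation markers as given above.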

How the data were processed

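RNA-Seq values of 10 muscle and 8 C2C12 libraries were used. Each of the 2 deposited tables holds FPKM values that the authors computed with DESeq2 from featureCounts gene counts, after HISAT2 alignment to GRCm38 with Ensembl annotation. The tables were scaled separately and hold no counts, so comparisons between groups stayed within one table. Versions of these tools, the strand setting and the handling of reads that match several genes are not given in the sources used here. Groups and replicate numbers came from the labels. The members and lists were chosen with earlier results of these data known.

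Values were analysed as log2(FPKM + 0.1), a scale that understates the change of low genes. Genes reaching 0.5 FPKM in 2 or more libraries entered limma 3.58.1 (lmFit, then eBayes with trend) under R 4.3.3, and a table's groups shared a single estimate of the spread. Benjamini-Hochberg adjustment ran over all genes tested, and an adjusted p of 0.05 or less counted as called. Intervals cover 95%. The fit was tested on simulated data. Depth was recovered from low values, of which 96.7% or more per library were whole multiples of 1 read within 0.02 reads, and entered no test.

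Replicate numbers were checked by correlating deviations from group means. The correlations were -0.0187 to 0.211 between muscle groups, where the numbers do not pair the libraries, and 0.278 to 0.680 between C2C12 groups, where all exceeded 0.1 and the block is given beside the result it changes. No source says what these numbers share.

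Besides the members, the genes named were the other tubulin genes, Mettl3, Xist and Y-linked genes, cell type markers, the gene most alike each member, and the 3 largest rises and falls among called list genes. Genes that overlap a member were added after their values were seen. Coding ends and shared windows were read from GENCODE M21 transcripts, and no sequence is given for Tuba1a, Tuba1b and Tubb6. One marker list is not reported here. The alternatives tried were pseudocounts of 1 and 0.01, the filter dropped or set to 1 FPKM, scaling by median ratios, quantile normalization, fits of the compared groups alone, a replicate block, each library left out and a term for Xist, the last added after seeing the data.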

Additional observations from a re-analysis of the deposited data

Results flagged for a closer look

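The GM and DM3 libraries of the lines moved in opposite directions for 2 members. For Tubb6 both control DM3 libraries lay above, and both knockdown DM3 libraries below, the GM libraries of the same line, and the knockdown effect differed between DM3 and GM by -2.64 on the log2 scale. For Tuba4a the same order was seen, with a difference of -1.77. The test of the difference did not pass for either gene (limma interaction term, adjusted p = 0.283 for Tubb6 and 0.266 for Tuba4a). Without control GM replicate 2 the differences were -3.25 and -1.89 (adjusted p = 0.0808 and 0.117).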

How the results depend on the processing

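The counts of members called moved by over 1.5 times in 6 of 11 comparisons. For day 1 against day 0 the 3 calls became 0 with no filter on low values, 0 with only the groups compared and 0 with a term for Xist, and 0 to 5 when a library was left out. For day 3 against day 1 the 7 calls became 4 with the Xist term and 4 to 7 without 1 library, and for day 5 against day 3 the 6 calls became 0 with the Xist term and 0 to 7 without 1 library. For knockdown against control at DM3 the 1 call became 2 with a pseudocount of 1, 2 with quantile normalization, 2 with a replicate block, 6 with only the groups compared, where 2637 of 13824 genes were called instead of 274, and 0 to 3 without 1 library. Differentiation gave 0 to 3 calls without 1 library in control cells and 0 to 3 in knockdown cells, against 0. The replicate block moved no other count of members called by over 1.5 times. In muscle, where it does not pair the libraries, it gave 6 calls instead of 7 on day 3 against day 1 and 7 instead of 6 on day 5 against day 3. The cause of these moves was not tested.

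Of 105 log2 fold changes of members, 9 changed sign under another setting, none of them called. Under quantile normalization, which moved the median of all genes on day 3 against day 0 to -0.12, Tuba8 was at 0.11 on day 1 against day 0 and -0.0303 on day 5 against day 3, and Tuba4a at 0.32 on day 3 against day 0. In control differentiation Tubb2a was at 0.38 and Tuba1a at 0.49, and in GM knockdown against control Tubb4b was at 0.24, Tuba1b at 0.16 and Tuba1a at 0.12. With the Xist term Tuba8 was at -0.23 on day 5 against day 3.

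Leaving out 1 library turned the sign of 24 fold changes, none of them called. In muscle the ranges were -0.36 to 0.18 for Tuba8 (day 1 against day 0), -0.60 to 0.19 for Tuba4a (day 3 against day 0), -0.27 to 0.37 for Tuba8 (day 5 against day 3) and, for day 10 against day 0, -0.44 to 0.11 for Tubb4b, -0.37 to 0.93 for Tubb2a, -0.15 to 1.41 for Tuba1a and -0.0410 to 1.14 for Tubb5. In control differentiation they were -0.78 to 0.70 for Tubb2a, -0.25 to 1.77 for Tubb2b, -1.73 to 0.40 for Tuba1b and -1.32 to 1.31 for Tuba1a, and in knockdown differentiation -1.07 to 0.75 for Tubb3. In GM knockdown against control they were -1.06 to 0.95 for Tubb4b, -0.81 to 1.92 for Tubb3, -0.30 to 1.18 for Tubb2a, -1.25 to 0.76 for Tubb2b, -1.26 to 0.87 for Tuba1b, -1.57 to 1.06 for Tuba1a, -1.06 to 1.15 for Tubb5 and -0.0914 to 1.14 for Tubb6. For the difference of the knockdown effects they were -1.52 to 0.49 for Tubb4b, -2.02 to 0.10 for Tuba1b, -1.96 to 0.68 for Tuba1a and -1.36 to 0.84 for Tubb5.

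With 2 libraries per group, low values such as those of Tubb3 on day 0 and of Tuba8 in C2C12 cells rest on a few reads. The share of reads that match several tubulin genes limits Tuba1a, Tuba1b, Tubb2a, Tubb2b and Tubb4b more than Tubb3 and Tubb6. For Tuba4a, 48.8% of the windows of 50 bases also occur in another gene, mostly Stk16.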
